A study of Mus musculus with 6 samples.

Results

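The genes described here break down haem and move or store iron: the haem oxygenases Hmox1 and Hmox2, the biliverdin reductases Blvra and Blvrb, the ferritin chains Ftl1 and Fth1, the iron exporter Slc40a1, the iron importer Tfrc, and Alas1 and Fech, which make haem. They were taken by symbol from the platform's annotation, and all 10 had 1 probe set (a group of probes read as 1 value) that is annotated to that gene alone, among 19938 genes named in this way. The list was drawn up with results of this comparison already known, so the differences of these 10 genes are given as a description, without single p-values, and the count of them past the threshold supports nothing. The samples are left ventricles of 10-week-old male C57/BL6 mice (the protocol spells the strain C57BL/6), hybridised to 1 Affymetrix array each. Of the 6 arrays, 3 carry the saline label and 3 the 2-methyl-2-thiazoline (2MT) label. The treatment text attached to every sample describes a subcutaneous injection of 2MT at 50 mg/kg and removal of the heart 4 h later, and says nothing separate for saline. The stated purpose was to learn how 2MT, a small thiazoline compound, protects the heart. The labels do not say that each array came from a separate mouse, so a p-value reflects no more than how these arrays scatter, and that scatter may be technical.

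Haem oxygenase opens the haem ring and releases biliverdin, carbon monoxide and iron; biliverdin reductase then turns biliverdin into bilirubin. Freed iron is stored inside ferritin, a shell of heavy and light chains, or leaves the cell through ferroportin, the product of Slc40a1. Hmox1 is known as an inducible gene under the repressor BACH1 and the activator NRF2, both of which bind DNA together with small MAF proteins at antioxidant response elements, while Hmox2 is the constitutive form.

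Of the 10 genes, 4 were lower in 2MT hearts (Hmox1, Ftl1, Slc40a1 and Blvrb) and passed an adjusted p of 0.05 in the fit across all genes, and 0 were higher. The groups did not overlap in the same 4 genes. Over all 10547 genes tested, 4.63% passed in either direction, 2.41% passed as lower in 2MT, and the groups did not overlap in 21.1% (10.1% with 2MT below saline). Because the genes were listed with this comparison in view, nothing is read from their count. Their median log2 difference, 2MT minus saline, was -0.04, and that of all genes tested was 0. The other 6 genes overlapped between the groups and differed by 0.09 or less in either direction. Every one of the 10 was bright enough to be tested.

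In 3 places, 1 of 2 partner genes was lower and the other was not: Hmox1 but not Hmox2, Blvrb but not Blvra, and Ftl1 but not Fth1. The DNA just upstream of 2 of these pairs is shown so that partners can be compared. RefSeq (GRCm38.p6) windows of 300 bases, 250 before and 50 after a transcription start, matched 7 of the 10 genes, with 13 windows in all. No window was used for Hmox1, Slc40a1 and Fech. The 250 bases before the start are printed 5′ to 3′ on the gene's strand for Ftl1 (chr7:45459887-45460136, minus strand), the downstream one of 2 windows of Fth1 (chr19:9982396-9982645, plus strand), the upstream one of 2 windows of Blvrb (chr7:27447728-27447977, plus strand) and Blvra (chr2:127070407-127070656, plus strand), with a motif match in capitals.
Ftl1: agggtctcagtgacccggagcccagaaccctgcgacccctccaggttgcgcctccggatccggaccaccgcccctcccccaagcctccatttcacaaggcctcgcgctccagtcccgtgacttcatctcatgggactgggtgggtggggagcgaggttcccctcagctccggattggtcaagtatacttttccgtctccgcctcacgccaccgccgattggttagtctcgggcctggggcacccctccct
Fth1: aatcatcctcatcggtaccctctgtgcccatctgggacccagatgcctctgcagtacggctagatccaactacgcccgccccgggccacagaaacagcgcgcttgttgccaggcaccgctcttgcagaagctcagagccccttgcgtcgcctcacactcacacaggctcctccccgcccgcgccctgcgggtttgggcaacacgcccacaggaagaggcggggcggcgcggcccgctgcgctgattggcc
Blvrb: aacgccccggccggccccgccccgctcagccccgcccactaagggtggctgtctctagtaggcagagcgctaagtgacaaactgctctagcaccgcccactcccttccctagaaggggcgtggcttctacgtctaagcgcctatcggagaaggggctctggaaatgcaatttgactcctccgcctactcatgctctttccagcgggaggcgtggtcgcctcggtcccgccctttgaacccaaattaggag
Blvra: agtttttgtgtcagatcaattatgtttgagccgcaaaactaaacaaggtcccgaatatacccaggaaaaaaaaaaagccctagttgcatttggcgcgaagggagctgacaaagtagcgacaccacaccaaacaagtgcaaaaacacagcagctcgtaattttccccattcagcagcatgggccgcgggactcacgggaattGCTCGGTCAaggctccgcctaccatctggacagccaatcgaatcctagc
The motifs searched on both strands were TGACNNNGC, the core of the antioxidant response element, and TGANTCA, an AP-1 type site; a sequence can hold both where they overlap. Among the 13 windows only that of Blvra, one of the genes that did not differ, held a match, GCTCGGTCA, which is the first motif read on the opposite strand. Of 32817 mouse windows of this length, 12.4% held the first motif and 7.81% the second. Absence says only that these letters are not in these windows.

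**Figure D1:**
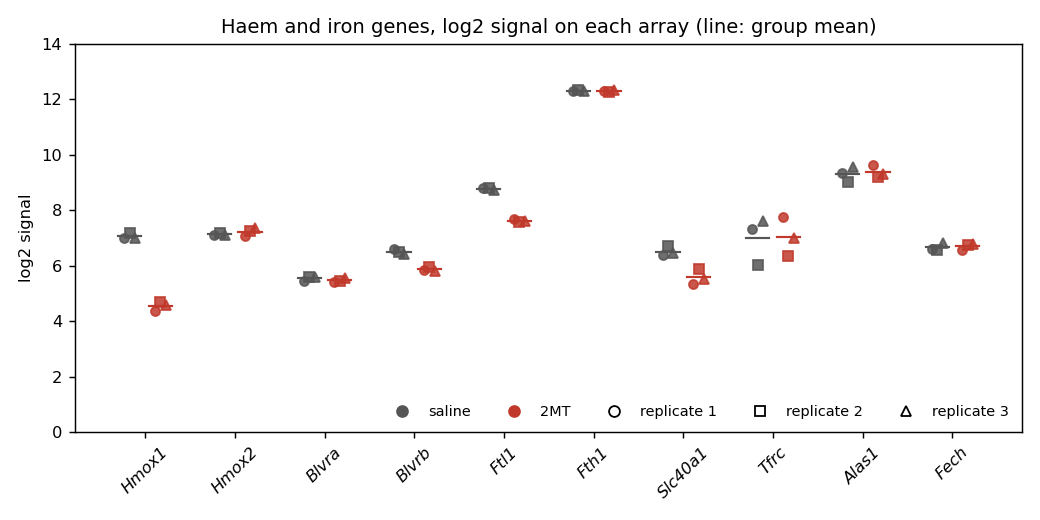
Log2 signal (vertical axis) of the 10 haem and iron genes on each of the 6 arrays, with saline in grey, 2MT in red, a marker shape for each replicate number and a line at each group mean. The groups are apart for Hmox1, Blvrb, Ftl1 and Slc40a1 and overlap for the other 6 genes. Heights of different genes are not comparable, because each probe set has its own brightness.

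Haem oxygenases come first in the pathway. Hmox1 was at a log2 signal of 6.99, 7.19 and 7.01 on the saline arrays and at 4.36, 4.70 and 4.58 on the 2MT arrays. All 2MT arrays lay more than 2 log2 units below the lowest saline array. The means were 7.06 ± 0.11 and 4.55 ± 0.17 (SD, n = 3, as for all means below), a difference of -2.52 ± 0.10 (SE) and a 5.72-fold lower signal. By size this was number 2 among the differences of all 10547 genes tested. The 2MT level lies close to 4.345, below which genes were left out as dim, and with 16 added to each signal before the logarithm the difference was -1.93.

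Hmox2 was at 7.10, 7.17 and 7.11 in saline and at 7.06, 7.24 and 7.35 in 2MT. The groups overlapped, with a difference of 0.09 and a 95% interval from -0.07 to 0.25. Taken within each array, the change of Hmox1 relative to Hmox2 was -2.61, and ran from -2.71 to -2.48 on the 2MT arrays against -0.05 to 0.08 around the saline mean.

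Biliverdin reductase genes act on the product of haem oxygenase. Blvrb, whose protein is also known as a flavin reductase, was at 6.59, 6.50 and 6.42 in saline and at 5.86, 5.95 and 5.82 in 2MT. The groups were apart, with a difference of -0.63 ± 0.08 (SE), which is 1.54-fold lower and number 83 by size. Blvra, the main reductase of adult biliverdin, was at 5.46, 5.58 and 5.60 in saline and at 5.43, 5.45 and 5.55 in 2MT. Its groups overlapped (difference -0.07, 95% interval -0.25 to 0.11). Within arrays the change of Blvrb relative to Blvra was -0.56.

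Ferritin genes encode the shell that stores the freed iron. Ftl1, the light chain that helps the iron core form, was at 8.82, 8.79 and 8.72 in saline and at 7.68, 7.56 and 7.63 in 2MT. No array came near the other group, and the difference of -1.15 ± 0.06 (SE) was 2.22-fold and number 14 by size. Fth1, the heavy chain that oxidises iron, was at 12.31, 12.35 and 12.29 in saline and at 12.30, 12.28 and 12.35 in 2MT. Its difference was -0.01, with a 95% interval from -0.09 to 0.08, the narrowest of the 10 genes. Fth1 is near the top of the signal range (13.5 is the highest value on any array), and saturation of its probe set was not tested. Within arrays the change of Ftl1 relative to Fth1 was -1.15, and ran from -1.18 to -1.08 on the 2MT arrays.

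The annotation lists Ftl1 on 4 more probe sets, each together with Mir692-2 and Mir692-3, so these carry no single gene name. Their differences were -1.14, -0.81, -1.12 and -1.12, and the groups were apart on all 5 probe sets that list Ftl1. Of the 5, 4 list the same Ftl1 transcript and are not independent readings, and they may read near-identical copies of the gene.

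**Figure D2:**
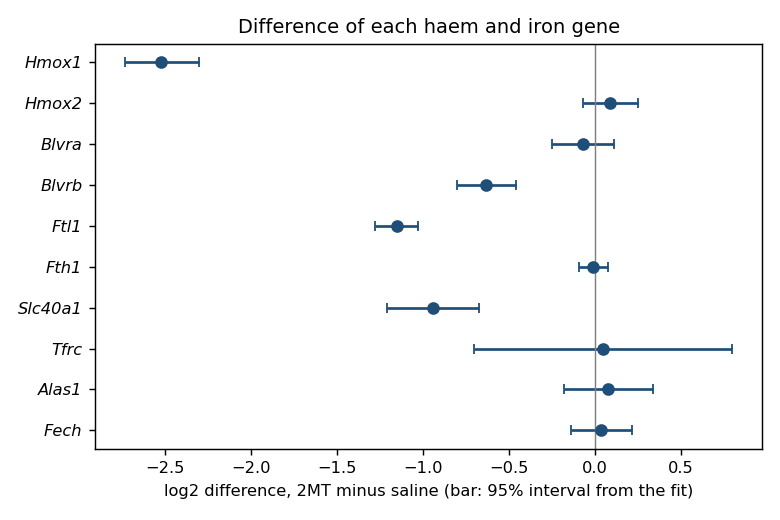
Log2 difference, 2MT minus saline (horizontal axis), of each haem and iron gene, with points at the difference and bars for the 95% interval from the fit across all genes. Hmox1 is at -2.52, Ftl1 at -1.15, Slc40a1 at -0.94 and Blvrb at -0.63. The bar of Fth1 is the narrowest and that of Tfrc, from -0.70 to 0.80, the widest.

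Iron leaves cells by ferroportin and enters by the transferrin receptor. Slc40a1 was at 6.37, 6.71 and 6.46 in saline and at 5.33, 5.87 and 5.53 in 2MT. The highest 2MT array stayed below the lowest saline array, and the difference was -0.94 ± 0.12 (SE), 1.91-fold lower and number 27 by size. Tfrc, which takes up iron bound to transferrin, was at 7.33, 6.04 and 7.60 in saline and at 7.76, 6.35 and 7.01 in 2MT. Its groups covered nearly the same range. The difference of 0.05 had a 95% interval from -0.70 to 0.80, which does not exclude a lower or a higher level in 2MT. Within arrays the change of Slc40a1 relative to Tfrc was -0.99, but the groups overlapped. It ran from -1.95 to 0 on the 2MT arrays against -0.66 to 1.15 around the saline mean.

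Haem synthesis starts with Alas1, the rate-limiting enzyme outside red cells, and ends with Fech, which inserts iron. Alas1 was at 9.33, 9.01 and 9.57 in saline and at 9.64, 9.21 and 9.31 in 2MT. Fech was at 6.59, 6.58 and 6.81 in saline and at 6.57, 6.76 and 6.77 in 2MT. Both genes overlapped between groups, with differences of 0.08 (95% interval -0.18 to 0.34) and 0.04 (-0.14 to 0.22).

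The 10 genes varied very unequally among arrays of 1 group. Tfrc had a pooled SD within groups of 0.77, number 2 of all 10547 genes tested, where the median gene had 0.10. Alas1 (0.25) was number 183 and Slc40a1 (0.23) number 330, while Ftl1 (0.06) was number 8969 and Fth1 (0.03) number 10212. The array numbered 2 was the lowest of its group for Tfrc and for Alas1 in saline and in 2MT, a pattern met in 10.6% of all genes tested. The array numbered 2 was the highest of its group for Hmox1 and for Slc40a1 in saline and in 2MT, as in 11.9% of all genes. Whether the numbers pair the arrays was not settled.

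**Figure D3:**
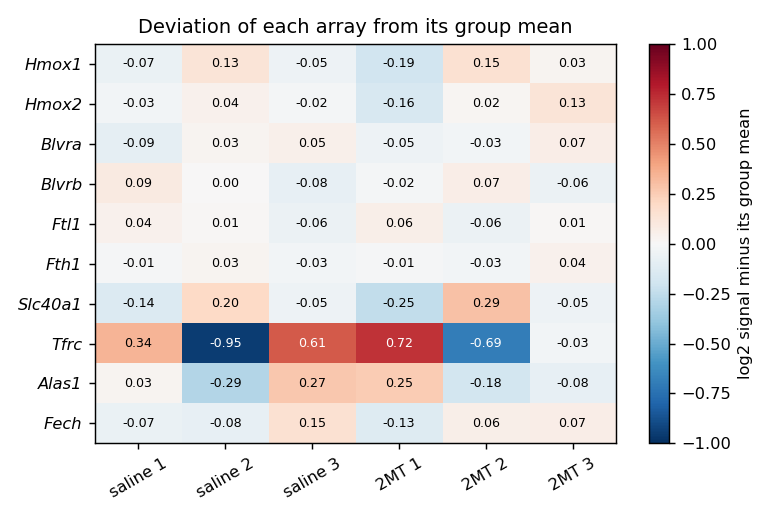
Log2 signal of each haem and iron gene (rows) on each array (columns) minus the mean of its group, with red above and blue below the mean. Tfrc runs from -0.95 on saline 2 to 0.72 on 2MT 1, and Alas1 is lowest on the same array of each group, while Ftl1 and Fth1 stay within 0.06.

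Of the genes tested, those with the highest Pearson correlation to Hmox1 over the 6 arrays were Gclm (0.998), a subunit of the enzyme limiting glutathione synthesis, Gsr (0.996), glutathione reductase, and Txnrd1 (0.995), thioredoxin reductase. For Ftl1 they were Gclc (0.999), the catalytic partner of Gclm, Srxn1 (0.998), sulfiredoxin, and Synpo2 (0.996), an actin-binding protein. For Slc40a1 they were Pdk4 (0.993), which inhibits pyruvate dehydrogenase, Slc38a3 (0.991), an amino acid transporter, and Ell2 (0.991), a transcription elongation factor. All 9 were lower in 2MT, by log2 differences from -2.76 for Srxn1 to -0.30 for Slc38a3, and the arrays share that group difference. The correlations are given as a description.

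Around these genes, 106 other genes of haem and iron handling were listed by role, of which 98 had a probe set of their own and 78 were bright enough to be tested. Of the 78, 7 fell, 2 rose and 11.5% in all passed, against 4.63% of all genes, with a median of -0.05 against 0. These lists too were chosen with earlier results of these data known, so nothing is read from that share. Of the 9 that passed, 4 were among the 10 tested regulators of haem oxygenase. The count of falls was 4 without saline 1 and 4 without 2MT 2, and that of rises was 1 when any array other than saline 3 was left out. Leaving out saline 3 gave 10 falls and 3 rises. The background count itself was 488 genes, and was 297, 275 and 261 without saline 1, 2MT 2 and 2MT 3.

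Among 10 tested transcriptional regulators of haem oxygenase, 3 fell and 1 rose (median -0.16). Bach1, the haem-sensing repressor of Hmox1, was at 6.98, 6.83 and 6.93 in saline and at 6.33, 6.12 and 6.10 in 2MT, and fell by 0.73 ± 0.08 (SE, adjusted p = 0.000111). Mafg, a small MAF partner of BACH1 and NRF2, was at 6.99, 6.58 and 6.67 in saline and at 5.90, 5.90 and 5.71 in 2MT, and fell by 0.91 ± 0.10 (adjusted p = 0.000131). The 2MT arrays lay below all saline arrays for Bach1, Mafg and Hmox1, as they did for 10.1% of all genes tested. Keap1, which holds NRF2 in check, fell by 0.40 ± 0.07 (adjusted p = 0.00516). Nfe2l2, which encodes NRF2, was at 7.62, 7.66 and 7.54 in saline and at 7.31, 7.31 and 7.46 in 2MT, a difference of -0.25 with an adjusted p of 0.0504, just outside the threshold. Over the 17 alternatives its adjusted p ran from 0.0363 to 0.187, and it passed in 5 of them. Hif1a, the oxygen-regulated factor that also acts on Hmox1, rose by 0.46 ± 0.06 (adjusted p = 0.000722), from 7.31, 7.31 and 7.41 to 7.81, 7.73 and 7.88. Mafk, another small MAF, was at 6.03 in saline and 5.79 in 2MT (adjusted p = 0.14).

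Of 11 tested genes of iron sensing and the hepcidin axis, 2 fell and 1 rose (median -0.05). Bmp6, the ligand by which iron raises hepcidin in the liver, fell by 0.39 ± 0.09 (SE, adjusted p = 0.0205), and Id1, a target of BMP signalling, fell by 0.37 ± 0.08 (adjusted p = 0.0223). Neo1, a receptor that binds hemojuvelin, rose by 0.26 ± 0.06 (adjusted p = 0.0207). With 1 array left out, the adjusted p of Bmp6 rose above 0.05 when that array was saline 1 (0.0976), saline 2 (0.0549), 2MT 1 (0.0838) or 2MT 2 (0.0727). For Id1 the arrays were saline 1 (0.0863), 2MT 2 (0.103) and 2MT 3 (0.107). For Neo1 they were saline 1 (0.0877), saline 2 (0.0549), 2MT 1 (0.0625), 2MT 2 (0.0813) and 2MT 3 (0.0849), so these 3 calls are weak. The iron regulatory proteins, which bind ferritin and Tfrc messages, are encoded by Aco1 (6.79 in saline, 6.74 in 2MT) and Ireb2 (6.75 and 6.66), with adjusted p values of 0.779 and 0.584. Fbxl5, which degrades the latter, had a difference of 0.10 (adjusted p = 0.494). Hamp, which encodes hepcidin, was under the dim filter, at 2.72 to 3.54 in saline and 2.75 to 3.59 in 2MT.

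**Figure D4:**
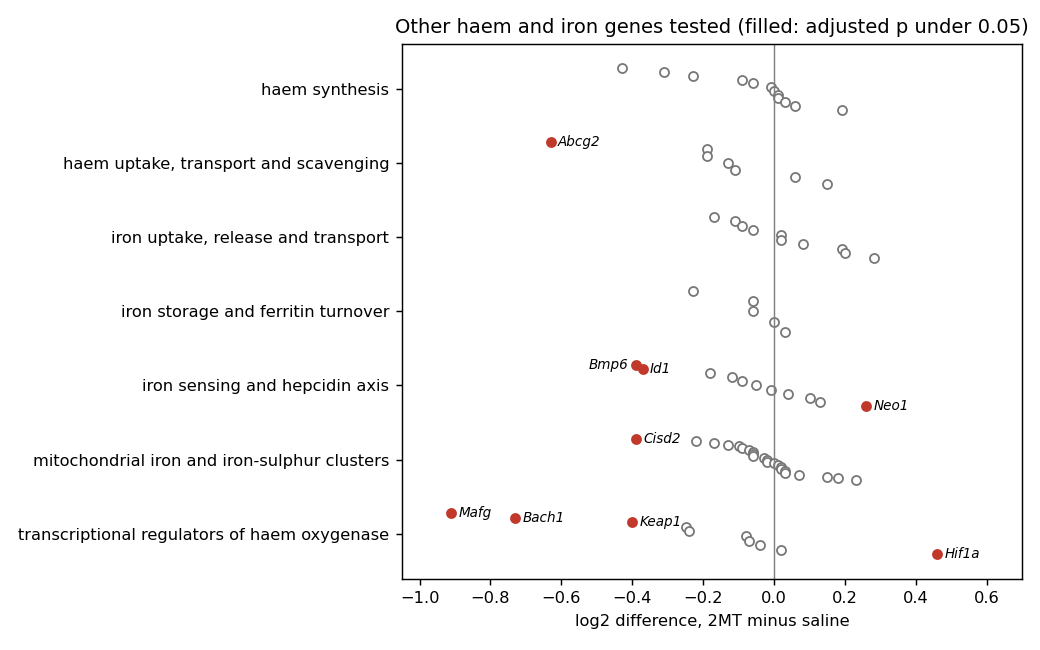
Log2 difference, 2MT minus saline (horizontal axis), of the 78 other haem and iron genes tested, 1 point a gene, grouped by role (rows), with genes past an adjusted p of 0.05 filled and named. The 9 filled points include Mafg at -0.91, Bach1 at -0.73 and Abcg2 at -0.63 on the left and Hif1a at 0.46 on the right, and haem synthesis, iron transport and iron storage have none.

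In haem uptake, transport and scavenging 1 of 7 tested genes fell (median -0.13). Abcg2, an efflux pump that carries porphyrins, was at 6.83, 6.78 and 6.86 in saline and at 6.23, 6.14 and 6.20 in 2MT, and fell by 0.63 ± 0.07 (SE, adjusted p = 0.000101). Lrp1, the receptor for haem bound to hemopexin, differed by -0.19 (adjusted p = 0.107) and Slc48a1, which carries haem out of lysosomes, by -0.11 (adjusted p = 0.41). Hpx, hemopexin itself, was dim.

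In haem synthesis 0 of 12 tested genes passed in limma (3 at an unadjusted p under 0.05), with a median of 0. The lowest p belonged to Pgrmc1, a haem-binding membrane protein, at 5.69 in saline and 5.38 in 2MT (adjusted p = 0.0563), followed by Abcb6, a porphyrin transporter, with a difference of -0.23 (adjusted p = 0.181). In iron uptake, release and transport 0 of 10 passed in limma (2 at an unadjusted p under 0.05), with a median of 0.02. Steap3, an endosomal ferric reductase, was at 6.49 in saline and 6.78 in 2MT (adjusted p = 0.0667, and 0.0211 without saline 3), and Cp, the ferroxidase ceruloplasmin, differed by 0.20 (adjusted p = 0.13). Trf, transferrin, and Slc11a2, an iron transporter of endosomes, differed by 0.02 and -0.09.

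In iron storage and ferritin turnover 0 of 5 passed in limma (1 at an unadjusted p under 0.05), with a median of -0.06; Ncoa4, the receptor that brings ferritin to lysosomes, differed by 0.03 (adjusted p = 0.866) and Herc2 by -0.23 (adjusted p = 0.11, and 0.0369 without saline 3). Among 23 genes of mitochondrial iron and iron-sulphur clusters 1 fell (median -0.02): Cisd2, an iron-sulphur protein of the outer mitochondrial and endoplasmic reticulum membranes, by 0.39 ± 0.09 (SE, adjusted p = 0.02). This call did not hold when saline 1 (0.0955), saline 2 (0.0533), 2MT 2 (0.0789) or 2MT 3 (0.116) was left out. Slc25a37, the mitochondrial iron importer, differed by -0.17 (adjusted p = 0.503).

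Hmox1, Slc40a1 and Blvrb are also abundant in macrophages or in red cell precursors, so markers of both cell types are given beside them. In bulk tissue fewer cells of a type and less RNA per cell cannot be told apart. The mean level of 16 macrophage markers ran from 5.59 to 5.75 in saline and from 5.58 to 5.72 in 2MT, with 14 tested, 3 lower in 2MT (Fcgr3, Lyve1 and Mertk) and a median difference of -0.01. Cd163, the macrophage receptor for haemoglobin bound to haptoglobin, differed by -0.13 (adjusted p = 0.599). Fcgr3 passed in all 17 alternatives and Lyve1 and Mertk in 9 each. With 1 array left out the adjusted p of Lyve1 was above 0.05 for saline 1 (0.0908), saline 3 (0.0758), 2MT 1 (0.0685), 2MT 2 (0.148) and 2MT 3 (0.116), and that of Mertk for saline 1 (0.138), saline 2 (0.067), 2MT 1 (0.0521), 2MT 2 (0.142) and 2MT 3 (0.106). Fcgr1 and Timd4 were dim and not tested, and their 2MT arrays lay above saline (differences 0.25 and 0.51). The part of the 3 lower macrophage genes in the values of Hmox1 and Slc40a1 was not tested.

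Of 12 erythroid markers 5 had a probe set of their own, and the globin genes Hba-a1, Hba-a2, Hbb-bs and Hbb-bt were not measured by a probe set of 1 symbol. The mean level of the 5 ran from 4.39 to 4.98 in saline and from 4.34 to 4.40 in 2MT, with Slc4a1, Epb42 and Klf1 dim. Saline 3 had the highest mean, with Alas2, the erythroid counterpart of Alas1, at 7.07 there and from 5.15 to 5.76 on the other arrays. Bpgm was at 6.77 on saline 3 against 6.26 to 6.40. On saline 1, 2 and 3, Slc4a1 was at 4.07, 3.61 and 4.08 and Epb42 at 3.22, 2.80 and 3.12. Klf1 was at 3.92, 4.00 and 3.85, so its lowest saline value was on saline 3. The 2MT arrays lay below saline for Klf1 (difference -0.56, not tested). Blvra, Fech, Tfrc and Alas1 had their highest saline value on saline 3, while Blvrb, Ftl1 and Fth1 had their lowest. Hmox1, Hmox2 and Slc40a1 lay between. The part of red cells in these values was not tested. Without saline 3 the log2 differences were -2.54 for Hmox1, -1.18 for Ftl1, -0.96 for Slc40a1 and -0.67 for Blvrb.

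The tissue label was checked with 10 cardiomyocyte markers, whose mean level was 12.31 to 12.34 in saline and 12.34 to 12.36 in 2MT, and with hepatocyte and neutrophil markers, of which all 4 and all 8 measured were dim. Neutrophil markers had a mean level of 3.10 to 3.18 in saline and 2.87 to 3.04 in 2MT. Among them Clec4d differed by -1.23 (means 4.58 in saline and 3.35 in 2MT) and the others by -0.19 to 0.05. These dim differences were not tested. Endothelial markers had a mean level of 7.12 to 7.24 in saline and 7.16 to 7.29 in 2MT, with a median difference of 0.05. The groups were apart in 21.1% of all genes tested and in 3 of these 8. The 2MT arrays lay below saline for Pecam1 (-0.33) and Vwf (-0.16) and above it for Kdr (0.24). One of them, Pecam1, fell by 0.33 ± 0.07 (SE, adjusted p = 0.02), which was above 0.05 without saline 1 (0.0946), saline 2 (0.086), 2MT 2 (0.0938) or 2MT 3 (0.113). Its part in the values of the haem and iron genes was not tested. Fibroblast markers had a mean level of 6.88 to 6.92 in saline and 6.82 to 7.01 in 2MT. Array medians lay between 4.32 and 4.37, and across the genes tested arrays correlated at 0.992 to 0.995 within a group and at 0.987 to 0.990 between groups.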

How the data were processed

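The authors deposited log2 signals, 1 per probe set and array (28944 probe sets, 6 arrays). That the scale is log2 is inferred from the range, 0.51 to 13.5. The submitters' processing notes name MAS5 without a version or a role, and the normalization step is not given in the sources used here. No further scaling was applied.

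Through the platform's annotation, 21789 probe sets had 1 symbol, 1621 had several and 5534 had none; 21698 single symbols were found by Entrez ID among current mouse genes and 0 changed. A gene is represented by its brightest probe set. Genes dimmer on average than the median probe set (4.345) were not tested, which kept 10547. The test was limma 3.58.1 under R 4.3.3: lmFit and eBayes with a variance trend, two-sided, with Benjamini-Hochberg adjustment across the genes tested. "Rose" and "fell" mean an adjusted p below 0.05. With 3 against 3 arrays, 0.1 is the lowest p an exact permutation test can give. The number of arrays limits the precision.

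The genes and lists were chosen with earlier results of these data known. Genes named are all 10, every other listed gene that passed with up to 2 more per list by smallest p, the 3 most alike to Hmox1, Ftl1 and Slc40a1, and a fixed set (Bach1, Nfe2l2, Alas2, Bpgm, Hba-a1, Hbb-bs, Cd163, Trf, Slc11a2, Aco1, Ireb2, Fbxl5, Ncoa4, Hamp, Slc48a1, Hpx, Slc25a37). Cell type markers named beyond this rule were chosen after their values were seen. They are those that passed, those that were dim, the endothelial markers with groups apart and the globin genes. The fit was tested on simulated data. Alternatives changed 1 choice at a time: normalization, dim filter, offset, probe sets per gene, variance trend, array weights, replicate block and each array left out. Figures used matplotlib 3.10.9 in Python 3.11.15.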

Additional observations from a re-analysis of the deposited data

How the results depend on the processing

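The count of the 10 haem and iron genes past the threshold, a description only, was 4 lower and 0 higher in each of 17 alternatives. Hmox1 ran from -2.59 to -1.93 on the log2 scale, Ftl1 from -1.18 to -1.09, Slc40a1 from -1.08 to -0.75 and Blvrb from -0.67 to -0.51. Tfrc ran from -0.42 to 0.40. The count of all genes called, 488, was 292 without the variance trend and 261 to 648 with 1 array left out. Of the other haem and iron genes, the 7 falls became 4 with every probe set tested on its own, 4 without the variance trend and 4 to 10 with 1 array left out. The 2 rises became 1 without the variance trend, 4 with the replicate block and 1 to 3 with 1 array left out. Bach1, Mafg, Abcg2, Keap1 and Hif1a passed in all 17 alternatives, while Bmp6, Neo1, Id1 and Cisd2 passed in 11, 11, 12 and 11. Some of these alternatives use fewer arrays or adjust over more probe sets, and why the counts moved was not tested. Whether the replicate numbers pair the arrays cannot be settled with so few arrays. Same-numbered arrays correlated at 0.07, 0.04 and 0.02 in their deviations from the group means, below the 0.1 taken as the minimum for pairing. Arrays of different number and group correlated at -0.08 to 0.04. Not every array correlated best with its own number, and with the block 586 genes were called. Signal over background is unknown for want of detection calls here, so differences of dim genes may be understated.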
